A study of Mus musculus with 12 samples.

Results

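The 50 genes described here encode chaperones and cochaperones of the CHIP network: Stub1 itself, the HSP70 and HSP110 proteins, HSP90, the small heat shock proteins, the mitochondrial chaperonin pair, J proteins, BAG proteins, HSP70 and HSP90 cochaperones and heat shock factors. They were chosen by name, as partners of CHIP or members of those families, with earlier results of these data known. Of the 50, 47 were measured on a probe set that names the gene alone, out of 18193 genes named in the table. Hsp90ab1 and Hsf1 were not analysed here, and Ptges3 was found on 2 probe sets that name several genes, which were not used. A gene with more than 1 probe set is represented by its brightest, judged by the average of the 12 arrays.

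Hearts of male C57BL/6J mice were profiled on 12 Affymetrix mouse 430 2.0 arrays, 3 for each of 4 groups. By the labels these are wild-type (WT) or CHIP knockout mice aged 8 to 10 weeks, left without treatment or given 1 injection of doxorubicin (DOX, an anthracycline chemotherapy drug that is toxic to the heart) at 15 mg/kg, with hearts taken at day 5. The groups are called WT no DOX, knockout-labelled no DOX, WT DOX and knockout-labelled DOX. The methods of the study describe the altered animals as cardiac-specific CHIP transgenic mice with WT littermates, and the untreated animals as injected with saline. They also give a higher DOX dose and an older age than the labels, so dose and age are printed here only as labelled. The promoter that drives the transgene, the number of founder lines and whether hearts were pooled are not given in the sources used here. The comparisons ask how these genes differ between genotypes with and without DOX, and how each genotype responds to the drug.

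CHIP, the product of Stub1, is a ubiquitin ligase that docks on the C-terminal tails of HSP70 and HSP90 through its TPR domain and marks their bound client proteins for the proteasome. HSP70 proteins cycle between client-holding and client-releasing states. J proteins start that cycle by driving ATP hydrolysis, HSP110 and BAG proteins drive nucleotide release, and small heat shock proteins hold unfolded clients without ATP. In the heart, several small heat shock proteins are abundant in the muscle cells and associate with the sarcomere. Transcription of many of these genes rises when heat shock factor binds repeated short elements in their promoters, and CHIP is itself known to activate that factor.

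The targeted gene goes against its label. On its brighter probe set, Stub1 read 1857, 1831 and 1790 on the WT no DOX arrays and 8762, 9817 and 9655 on the knockout-labelled no DOX arrays. After DOX it read 1944, 1950 and 1930 on the WT arrays and 5561, 7998 and 8723 on the knockout-labelled arrays. All values here are linear intensities, and no knockout-labelled array overlapped the WT arrays. Stub1 was higher by 2.34 on the log2 scale without DOX (SE 0.13, adjusted p = 0.00022, limma) and by 1.89 after DOX (SE 0.13, adjusted p = 0.00099), which is 5.08-fold and 3.71-fold. The second Stub1 probe set did not pass the test in either comparison, with log2 differences of -0.04 and -0.08 (adjusted p = 0.94 and 0.74). Every log2 difference here is of log2(intensity + 32), which understates changes of dim genes. Since the label says knockout and the transcript was higher, each genotype direction below is that of the arrays labelled knockout against WT.

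One array stands apart from its group for these genes, and this bears on each result that uses it. Knockout-labelled no DOX replicate 3 was at least 1.5-fold above the mean of the other 2 arrays of its group for 8 of 47 measured members, against 1.56% of all 45037 probe sets, and at least 1.5-fold below it for 0 members, against 0.91%. Shares of all probe sets, here and below, are not matched to the members for brightness. A mean intensity under 32 was found for 51.4% of all probe sets and for 1 of the 47 members. On each of the other 11 arrays, 0 or 1 members were that far above the rest of their group. All 13 measured heat-inducible members lay above the mean of their group's other 2 arrays on this array, with a median log2 difference of 0.41. On knockout-labelled DOX replicate 3 all 13 did so too, with a median of 0.14. These 13, known as targets of the heat shock response, are Hspa1a, Hspa1b, Hspa8, Hsph1, Hsp90aa1, Hspb1, Cryab, Hspd1, Hspe1, Dnaja1, Dnajb1, Bag3 and Stip1. Members and lists were chosen with earlier results of these data known. The mean correlation of knockout-labelled no DOX replicate 3 with its group was 0.9896, the lowest of the 12, where the lowest correlation between any pair of arrays was 0.976. Its summed intensity of 6 macrophage markers was 8847, against 4378 and 6482 on the other arrays of the group, and that of 6 fibroblast markers was 19350, against 13090 and 15890, while the sum of 7 cardiomyocyte markers was 117800, against 123100 and 120900. Smooth muscle (13730, against 7356 and 10180) and lymphocyte sums (437.4, against 324.6 and 335.9) were also the highest of the group. Endothelial (2221, against 2475 and 2835) and erythroid sums (66.05, against 313.8 and 155) were the lowest. No marker of any list was at 0 on any array, which does not show that each was detected. The lowest markers of the erythroid and lymphocyte lists read under the median probe set mean of 29.8 on every array. The part of these cell types in the array's values was not tested. Results are given with and without this array for some of the genes that it moved, not for all of them.

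**Figure D1:**
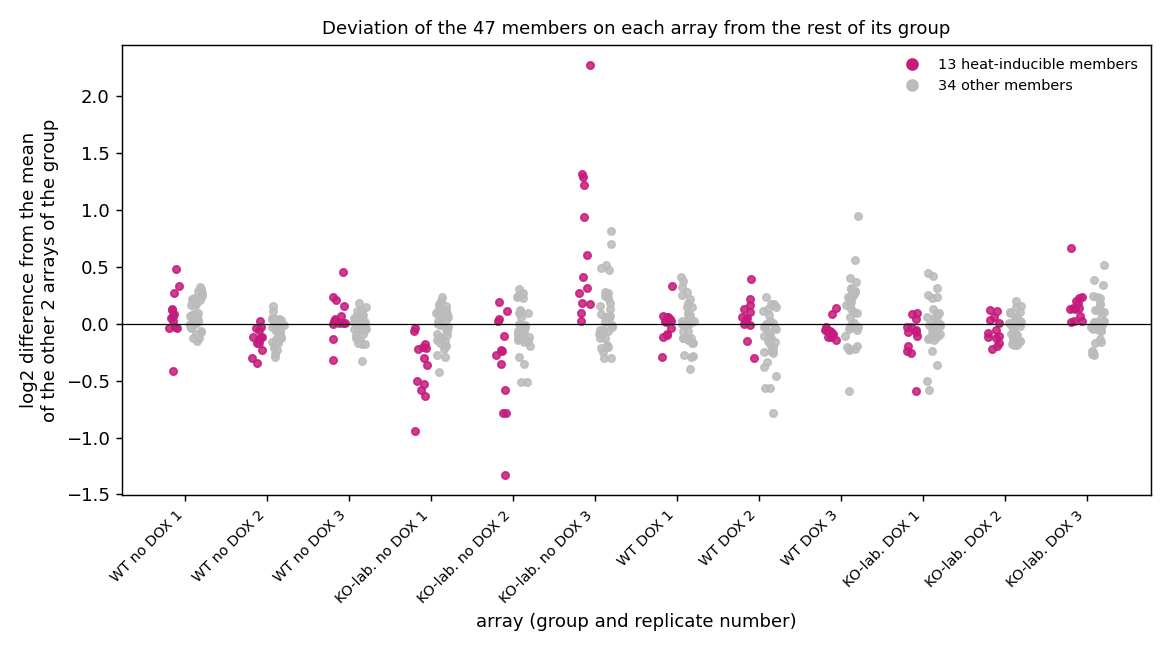
Each point is 1 of the 47 measured members on 1 array (x axis, group and replicate number, with KO-lab. for knockout-labelled), plotted as its log2(intensity + 32) minus the mean of the other 2 arrays of the group (y axis). The 13 heat-inducible members (magenta) all lie above 0 on knockout-labelled no DOX replicate 3, up to 2.27 for Hspa1b. They also all lie above 0 on knockout-labelled DOX replicate 3.

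The promoters of 5 members that were at least 1.5-fold higher on this array are shown because these genes moved together there. Each is the 250 bases before the annotated start, 5' to 3' on the gene's strand, from RefSeq on GRCm38.p6: Hspa1b at chr17:34959239-34959488, Hspa1a at chr17:34972157-34972406 and Hsph1 at chr5:149636316-149636565 on the minus strand, and Dnaja1 at chr4:40722218-40722467 and Hspa5 at chr2:34771840-34772089 on the plus strand. Capitals mark a pair of heat shock element units (GAANNTTC or TTCNNGAA) in the first 4, and in Hspa5 the ER stress element, the site bound by the unfolded protein response factor ATF6 with NF-Y.
Hspa1b: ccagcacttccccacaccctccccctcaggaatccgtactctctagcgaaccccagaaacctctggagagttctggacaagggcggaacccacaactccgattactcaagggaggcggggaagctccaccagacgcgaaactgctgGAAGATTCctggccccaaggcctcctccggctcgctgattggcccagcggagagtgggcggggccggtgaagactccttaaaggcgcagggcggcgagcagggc
Hspa1a: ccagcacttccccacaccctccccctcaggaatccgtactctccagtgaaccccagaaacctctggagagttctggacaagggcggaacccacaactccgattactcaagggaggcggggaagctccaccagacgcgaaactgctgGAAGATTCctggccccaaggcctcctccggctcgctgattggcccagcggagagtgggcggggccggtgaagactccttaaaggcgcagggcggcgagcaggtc
Hsph1: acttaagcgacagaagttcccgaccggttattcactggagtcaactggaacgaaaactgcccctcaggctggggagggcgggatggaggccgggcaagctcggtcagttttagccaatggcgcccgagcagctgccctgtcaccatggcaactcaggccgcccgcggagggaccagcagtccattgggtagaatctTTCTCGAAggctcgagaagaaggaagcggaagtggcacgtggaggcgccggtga
Dnaja1: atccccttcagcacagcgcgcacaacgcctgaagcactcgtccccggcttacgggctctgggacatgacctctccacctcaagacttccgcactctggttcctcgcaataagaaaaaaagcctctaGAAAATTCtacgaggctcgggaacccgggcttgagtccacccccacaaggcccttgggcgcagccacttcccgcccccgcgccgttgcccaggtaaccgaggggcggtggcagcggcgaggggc
Hspa5: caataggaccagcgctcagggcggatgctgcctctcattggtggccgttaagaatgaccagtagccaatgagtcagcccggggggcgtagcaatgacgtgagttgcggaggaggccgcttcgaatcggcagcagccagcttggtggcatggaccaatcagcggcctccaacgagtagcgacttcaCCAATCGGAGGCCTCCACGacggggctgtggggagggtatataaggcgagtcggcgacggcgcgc

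The Hspa1a and Hspa1b stretches differ at 3 of 250 positions, and both carry the capitalised pair 104 bases before the start. In Dnaja1 the pair starts 124 bases before the start, and other annotated starts of Dnaja1 lie downstream of it. In Hsph1 the marked pair starts 54 bases before the start, and its GAANNTTC match lies after the start, outside the stretch shown. In Hspa5 the ER stress element starts 65 bases before it. Over the 300 bases that the promoter table gives (250 before and 50 after the start), searched on both strands, 39 of 47 measured members had an entry, and Bag4, Cryab, Hsp90aa1, Hspa13, Hspa8, Hspa9, Hspb2 and St13 had none. GAANNTTC was present in 15 of 39 members (38.5%), against 9.04% of all 27025 genes in the table and 7.86% of single promoters of that length, and in 8 of the 10 heat-inducible members with an entry. TTCNNGAA was present in 6 of 39 (15.4%), against 9.6% of all genes and 8.52% of single promoters. A gene counts where any of its promoters held a match. The Hspd1 and Hspe1 promoters overlap on opposite strands, so the same matches count for both genes. The 3-unit heat shock element, which contains these pairs, was found in Dnajb6, Hspd1, Hspe1 and Hsph1 (0.662% of all genes and 0.603% of single promoters), and the ER stress element in Dnajc3, Hsp90b1 and Hspa5 (0.137% of all genes and 0.119% of single promoters). Of the 7 members with an entry among the 8 that were at least 1.5-fold higher on knockout-labelled no DOX replicate 3, Dnaja1, Hspa1a, Hspa1b and Hsph1 held GAANNTTC and Dnajc3 and Hspa5 held the ER stress element. For GAANNTTC that is 4 of 7 (57.1%), against 11 of the 32 other members with an entry (34.4%). Stub1, Hspb6, Hspb3 and Fkbp4 are among those 11. A match is a description of the letters and not a shown binding site.

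The 8 members in that count were named after their values were seen. Hspa1b, the strictly inducible HSP70, read 611.8 on knockout-labelled no DOX replicate 3 and between 60.5 and 113.7 on the other 11, a 4.83-fold excess over the other 2 arrays of its group on the added scale. Hspa1a, a near-identical copy of Hspa1b whose signal a probe set may share, read 118.5, against 18.7 to 36.2 elsewhere. Those 11 values lie around the median probe set mean of 29.8, so no fold is given for it. On both inducible HSP70 genes the array stood well clear of the other 11.
Hsph1, an HSP110 that exchanges nucleotide on HSP70, read 1272 there and 284.2 to 631.1 elsewhere (2.48-fold). Hsp90aa1, the inducible cytosolic HSP90, read 3746 and 1028 to 1610 elsewhere (2.33-fold). Dnaja1, a J protein of the cytosol, read 2209 and 684.6 to 1203 elsewhere (1.91-fold). For each of these 5 genes the array was the highest of the 12. Stip1, the HOP protein that bridges HSP70 and HSP90, was also highest there, at 400.9 against 203.7 to 270.7 (1.52-fold).
For 2 ER genes of the 8 this array was not the highest of the 12. Hspa5, the ER lumen HSP70 known as BiP, read 4434 on this array but 5089 on WT DOX replicate 3, and Dnajc3, an ER J protein, read 654.6 but up to 692.5 on WT DOX arrays. This array was the highest of the 12 for 16 of 47 members, against 11.3% of all probe sets.

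**Figure D2:**
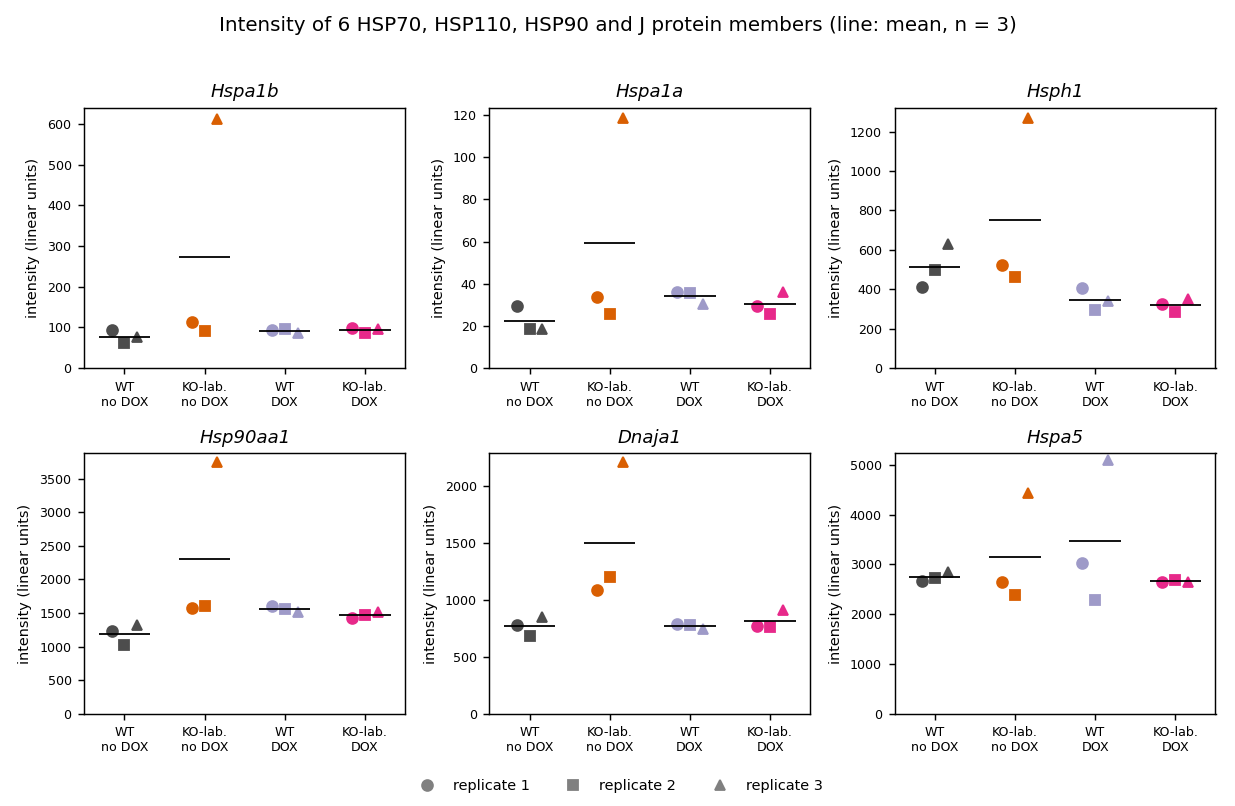
Linear intensities (y axis, from 0) of 6 members on each array of the 4 groups (x axis, KO-lab. for knockout-labelled), with symbols for replicates 1 to 3 and a line at the group mean. Hspa1b, Hspa1a, Hsph1, Hsp90aa1 and Dnaja1 are highest on knockout-labelled no DOX replicate 3, and Hspa5 is highest on WT DOX replicate 3.

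Without DOX, Stub1 was higher and Hspb6 and Hspa12a were lower on the knockout-labelled arrays than on the WT arrays. These 3 of 47 measured members passed an adjusted p of 0.05, where 1.81% of all probe sets did. Hspb6 encodes Hsp20, a small heat shock protein abundant in striated muscle. It read 7762, 8077 and 7870 on WT no DOX arrays and 4972, 5651 and 5511 on knockout-labelled no DOX arrays. The groups did not overlap, and the log2 difference was -0.55 (SE 0.07, adjusted p = 0.012). In whole hearts, fewer cells of a type and less RNA per cell cannot be told apart. Hspa12a, a divergent HSP70 relative, read 152.4, 133.8 and 122.5 on WT no DOX arrays and 72.9, 92.4 and 64.2 on knockout-labelled ones. Every WT value was above every knockout-labelled value, with a log2 difference of -0.64 (SE 0.11, adjusted p = 0.027). A dimmer Hspa12a probe set also passed, at -0.32 (adjusted p = 0.017), and the mean of its probe sets differed by -0.29 (adjusted p = 0.025).

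Beside these 3, the other 44 measured members lay between -0.71 for Dnajb6 and 1.06 for Hspa1b on the log2 scale, and 30 of the 44 were within 0.3 of 0. The value of Hspa1b was 0.30 without knockout-labelled no DOX replicate 3. The groups did not overlap for 19 of 47 members, where 19.4% of all probe sets did not. The 13 heat-inducible members had a median difference of 0.40, with 11 above 0, and it was 0.16, with 9 above 0, without knockout-labelled no DOX replicate 3. The median of all probe sets was 0.00 in both fits. Hspb1, the classical small heat shock protein Hsp25, read 6836, 5945 and 6567 on WT no DOX arrays and 8184, 8002 and 10730 on knockout-labelled ones. That is 0.46 on the log2 scale without passing the test (SE 0.11, adjusted p = 0.074), although the groups did not overlap. Without knockout-labelled no DOX replicate 3 the Hspb1 difference was 0.33 (adjusted p = 0.13). Dnaja1 read 0.87 higher (adjusted p = 0.081). Without that array 3 members passed (0.75% of all probe sets), now Stub1, Hspb6 and Dnaja1, with Dnaja1 higher by 0.56 (adjusted p = 0.046) and Hspa12a at -0.55 (adjusted p = 0.081).
Dnajb6, a J protein that suppresses aggregation, gave opposite signs on its 2 brightest probe sets, -0.71 and 0.58 (adjusted p = 0.083 and 0.094), so no direction is given for it. Dimmer probe sets of Hspa4 (0.52), Hspa4l (0.55) and Hspb7 (-0.42) passed the test (adjusted p = 0.02, 0.027 and 0.043) where the brightest did not (0.05, 0.36 and -0.29).

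The called members depended on single arrays and on the filter. Hspb6 lost its call without WT no DOX replicate 2 (-0.54, adjusted p = 0.059), and Hspa12a lost it without any 1 of the WT no DOX arrays or of knockout-labelled no DOX replicates 1 and 3 (adjusted p from 0.063 to 0.1), while 1 member, Stub1, remained called without WT no DOX replicate 2, and with only probe sets of mean intensity 32 or more 7 members passed (6.28% of those probe sets), Hspb1, Dnaja1, Ahsa1 and Dnajb6 being added. Of the marker lists, the 4 smooth muscle markers summed to 7356 to 13730 on knockout-labelled no DOX arrays and 1857 to 2781 on WT no DOX arrays, with Acta2 higher by 2.41 (adjusted p = 0.014), and the 6 fibroblast markers to 13090 to 19350 against 10300 to 12940. Their part in the chaperone differences was not tested.

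After DOX, Stub1 was the 1 member of 47 that passed between genotypes, where 0.941% of all probe sets did. The other 46 lay between -0.53 (Dnajb6) and 0.59 (Hspb3), and 39 of them were within 0.3 of 0. Hspb3, a small heat shock protein that assembles with Hspb2 in muscle, read 94.4, 87.6 and 113.1 on WT DOX arrays and 133.2, 164.8 and 196.8 on knockout-labelled DOX arrays. The groups did not overlap, and the log2 difference of 0.59 did not pass the test (SE 0.13, adjusted p = 0.071). Bag2, a nucleotide exchange factor known to inhibit CHIP, read 299.2, 233.2 and 305.4 on WT DOX arrays and 343.6, 365.7 and 350.1 on knockout-labelled DOX arrays. All knockout-labelled values were above all WT values, at 0.32 on the log2 scale (SE 0.08, adjusted p = 0.089). The heat-inducible members had a median of -0.08, with 5 of 13 above 0. Groups did not overlap for 12 of 47 members, against 20.4% of all probe sets.
Leaving out WT DOX replicate 3 gave 3 called members, with Bag2 and Dnajb6 added, and leaving out knockout-labelled DOX replicate 1 gave 2, with Hspb3 added (adjusted p = 0.043). The 6 macrophage markers summed to 4015 to 4783 on knockout-labelled DOX arrays and 2595 to 3242 on WT DOX arrays, with 6 of 6 above 0 and 0 past the test, and the 6 fibroblast markers to 11190 to 11530 against 8834 to 10040, with Lum higher by 1.17 (adjusted p = 0.02). Their part in the chaperone differences was not tested. In a fit to the 6 arrays compared, Stub1 kept its difference of 1.89 with an adjusted p of 0.052.

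In WT hearts, 4 members were lower after DOX past the test and 0 were higher. Those called were Hspb3, Fkbp4, Hspa12a and Hspb6, 4 of 47, where 3.06% of all probe sets passed, 1.4% in the lower direction and 1.66% in the higher. Hspb3 fell from 207.2, 172.8 and 188.5 on WT no DOX arrays to 94.4, 87.6 and 113.1 on WT DOX arrays, a log2 change of -0.77 (SE 0.13, adjusted p = 0.022). Its treated and untreated values were far from overlapping. Fkbp4, the immunophilin FKBP52 that joins HSP90 in steroid receptor complexes, fell from 637.7, 548.5 and 643.4 to 335.9, 369.4 and 475.0, a change of -0.60 (SE 0.12, adjusted p = 0.034). Again no treated array reached an untreated one, but averaged over the probe sets of the gene its change was -0.29 (adjusted p = 0.053). Hspa12a fell to 68.2, 80.4 and 99.5 (-0.56, SE 0.11, adjusted p = 0.035), or by -0.34 as the mean of its probe sets. Hspb6 fell to 6060, 5435 and 6805 (-0.38, SE 0.07, adjusted p = 0.03), and all 3 treated arrays were below all untreated ones. Thus 2 of the 7 small heat shock proteins fell past the test, and Hspb2 (-0.17), Hspb7 (-0.04), Hspb8 (-0.07) and Cryab (0.01) did not pass it. Hspb1 went the other way (0.35) without passing, with every WT DOX array above every WT no DOX array.

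The other 43 measured members lay between -0.52 (Hsph1) and 0.67 (Dnajc3), and 37 were within 0.3 of 0. Stub1 itself differed by 0.09 (adjusted p = 0.8). Groups did not overlap for 18 of 47 members, against 24.4% of all probe sets. Bag3, a cochaperone that links HSP70 and small heat shock proteins to autophagy, read 2483, 1831 and 1703 without DOX and 2691, 2497 and 2851 after it (0.43, adjusted p = 0.087), without overlap. Of the ER members, Dnajc3 read 416.6, 373.1 and 421.3 without DOX and 619.8, 666.1 and 692.5 after it, a log2 difference of 0.67 (adjusted p = 0.086).
Knockout-labelled no DOX replicate 3 is in neither of these groups but adds to the spread that the fit shares. Without it, 7 members passed (4.67% of all probe sets), with Dnajc3 (0.67, adjusted p = 0.021), Hsp90aa1 (0.38, adjusted p = 0.03) and Hspb1 (0.35, adjusted p = 0.036) added as higher after DOX. The count also moved the other way: 0 members passed without WT no DOX replicate 2, WT no DOX replicate 3, WT DOX replicate 1 or WT DOX replicate 2, and 1 passed without WT no DOX replicate 1 (Bag3) or without knockout-labelled DOX replicate 2 (Hspb3). Hspb3 kept a log2 change from -0.85 to -0.71 over the 12 fits that leave out 1 array, Fkbp4 from -0.74 to -0.51, Hspa12a from -0.66 to -0.46 and Hspb6 from -0.46 to -0.30. Macrophage markers summed to 2595 to 3242 on WT DOX arrays against 4496 to 5789 on WT no DOX arrays, with 2 of 6 lower past the test, and cardiomyocyte markers to 103100 to 121900 against 122100 to 127200. Fibroblast markers summed to 8834 to 10040 against 10300 to 12940, with Lum lower past the test. Erythroid markers summed to 24.17 to 42.28 against 184.8 to 987.4, with Alas2 lower past the test. The part of these cell types in the 4 changes was not tested.

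In knockout-labelled hearts, 1 member was lower after DOX past the test on its brightest probe set, Ahsa1, where 2.2% of all probe sets passed, 1.47% in the lower direction. Of the 72 dimmer probe sets of the members, 1 of Hspa4l passed. With the mean of each gene's probe sets, Hspa4l and St13 passed as lower beside Ahsa1. Fkbp4, called in WT hearts, was also lower on the knockout-labelled DOX arrays (377.2 to 450.1) than without DOX (522.7 to 620.3). Its groups did not overlap there, but it did not pass the test. Ahsa1 encodes AHA1, the activator of the HSP90 ATPase. It read 847.6, 882.2 and 1209 without DOX and 562.9, 553.5 and 633.8 after it. All treated values were below all untreated ones, with a change of -0.70 (SE 0.11, adjusted p = 0.018) that was -0.55 (adjusted p = 0.012) without knockout-labelled no DOX replicate 3 and -0.34 as the mean of its probe sets. In WT hearts Ahsa1 was also lower after DOX (-0.17), without overlap (619.7 to 641.6 against 707.9 to 724) and without passing the test. Its call was lost without knockout-labelled DOX replicate 1 (-0.68, adjusted p = 0.075) or 2 (-0.67, adjusted p = 0.06), leaving 0 members called, and 2 members passed when WT no DOX replicate 1 (Bag3 and Ahsa1), knockout-labelled no DOX replicate 2 (Hspa12a and Ahsa1), WT DOX replicate 2 (Hspe1 and Ahsa1), WT DOX replicate 3 (Fkbp4 and Ahsa1) or knockout-labelled DOX replicate 3 (Hspa8 and Ahsa1) was left out.

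Hspe1, the lid of the mitochondrial chaperonin, read 2666, 3087 and 3066 without DOX and 1840, 2197 and 2218 after it, without overlap (-0.49, SE 0.12, adjusted p = 0.068). Its partner Hspd1 read -0.04. Hspa13, an HSP70 ATPase of the microsomes, read 267.7, 254.6 and 379.5 without DOX and 190.8, 198.7 and 211.2 after it (-0.50, SE 0.13, adjusted p = 0.085). These groups too were separate, and without knockout-labelled no DOX replicate 3 the Hspa13 change was -0.34 (adjusted p = 0.12). The other 46 measured members, those included, lay between -1.02 (Hsph1) and 0.42 (Hspa12a), and 31 of all 47 were below 0. The treated arrays did not overlap the untreated ones for 21 of 47 members (20.7% of all probe sets), 15 of them lower (9.59%).
Of the 13 heat-inducible members 12 were below 0, with a median of -0.41, and without knockout-labelled no DOX replicate 3 it was 11 below 0 with a median of -0.11. Hsph1 went from -1.02 to -0.58 (adjusted p = 0.14 and 0.15), Hspa1b from -0.84 to -0.08 (adjusted p = 0.47 and 0.86) and Hsp90aa1 from -0.52 to -0.11 (adjusted p = 0.4 and 0.67). All 5 BAG members lay at or above 0, up to 0.35 for Bag3 (adjusted p = 0.18). With only probe sets of mean intensity 32 or more, 8 members passed (7.8% of those probe sets), 7 of them lower. Acta2 changed by -1.91 after DOX in these hearts (adjusted p = 0.025, and 0.059 without that array). The 6 fibroblast markers summed to 11190 to 11530 against 13090 to 19350, with Lum and Col1a1 lower past the test. Ryr2 of the cardiomyocyte list was also lower past it. Without that array 1 fibroblast marker and 0 cardiomyocyte markers passed. The part of these cell types in the changes was not tested.

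**Figure D3:**
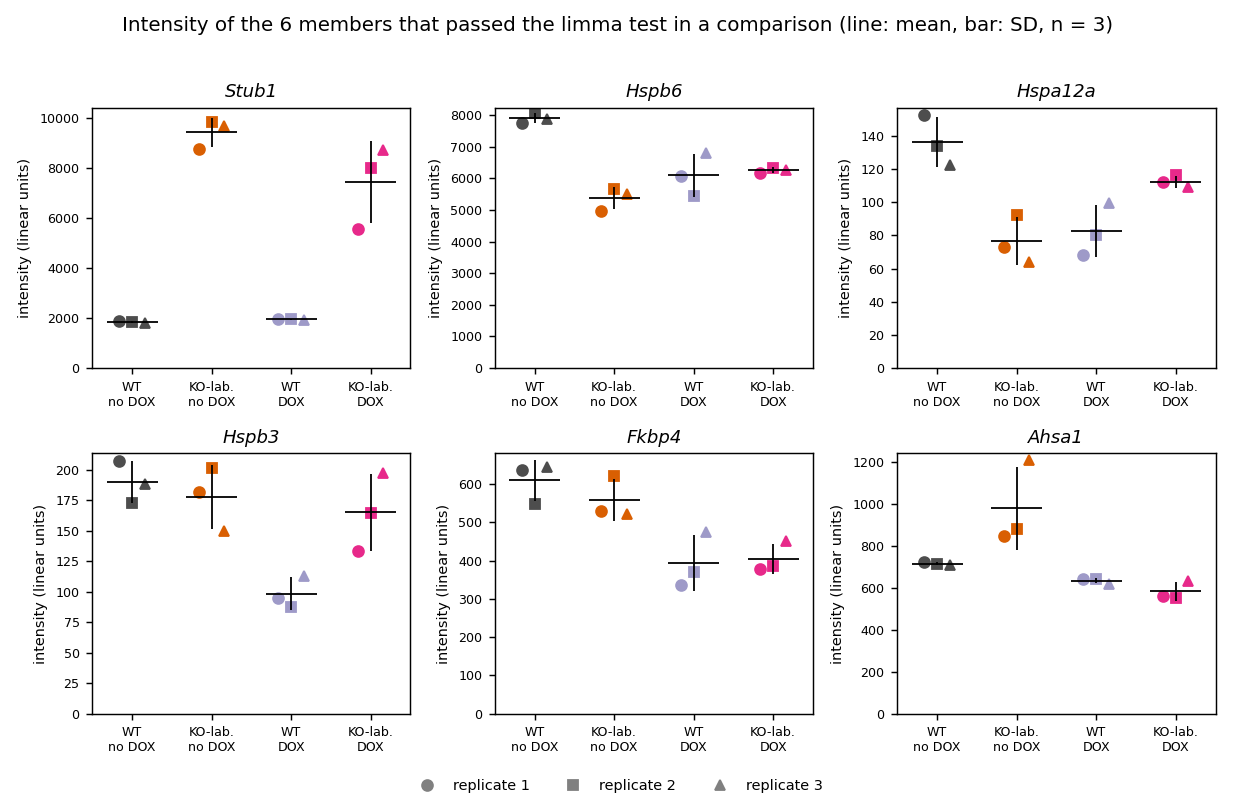
Linear intensities (y axis, from 0) of the 6 members that passed the test in a comparison, on each array of the 4 groups (x axis, KO-lab. for knockout-labelled), with symbols for replicates 1 to 3, a line at the mean and a bar of 1 SD to each side (n = 3). Stub1 is high on all knockout-labelled arrays, Hspb6 and Hspa12a are highest on the WT no DOX arrays, Hspb3 is lowest on the WT DOX arrays, Fkbp4 is lower on both DOX groups and Ahsa1 is highest on knockout-labelled no DOX replicate 3.

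The interaction, which asks whether the response to DOX differed between genotypes, passed for 0 of 47 members and 0% of all probe sets. At an unadjusted p under 0.05 it was 12 of 47 members, against 8.69% of all probe sets, 8 of them negative (4.41% of all) and 4 positive (4.28%). The smallest p were those of Hspa12a (0.98, SE 0.16, adjusted p = 0.23), Hspb6 (0.60, SE 0.10, adjusted p = 0.26) and Hspb1 (-0.58, SE 0.16, adjusted p = 0.44). Hspa12a read 112.1, 116.1 and 109.0 on knockout-labelled DOX arrays, above all 3 knockout-labelled no DOX arrays and below all 3 WT no DOX arrays. Hspb6 read 6170, 6338 and 6272 on knockout-labelled DOX arrays, again between those groups. Hspb1 read 8078, 8614 and 7975 on WT DOX arrays and 6746, 7959 and 8029 on knockout-labelled DOX arrays. Its WT DOX values were all above the WT no DOX ones and its knockout-labelled DOX values overlapped the untreated ones, and neither response passed the test. Interaction values ranged from -1.03 (Hspa1b) to 0.98 (Hspa12a), and that of Hspa1b was -0.28 without knockout-labelled no DOX replicate 3. The genotype comparisons and the DOX comparisons share arrays, so their values for a gene are not independent of each other.

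**Figure D4:**
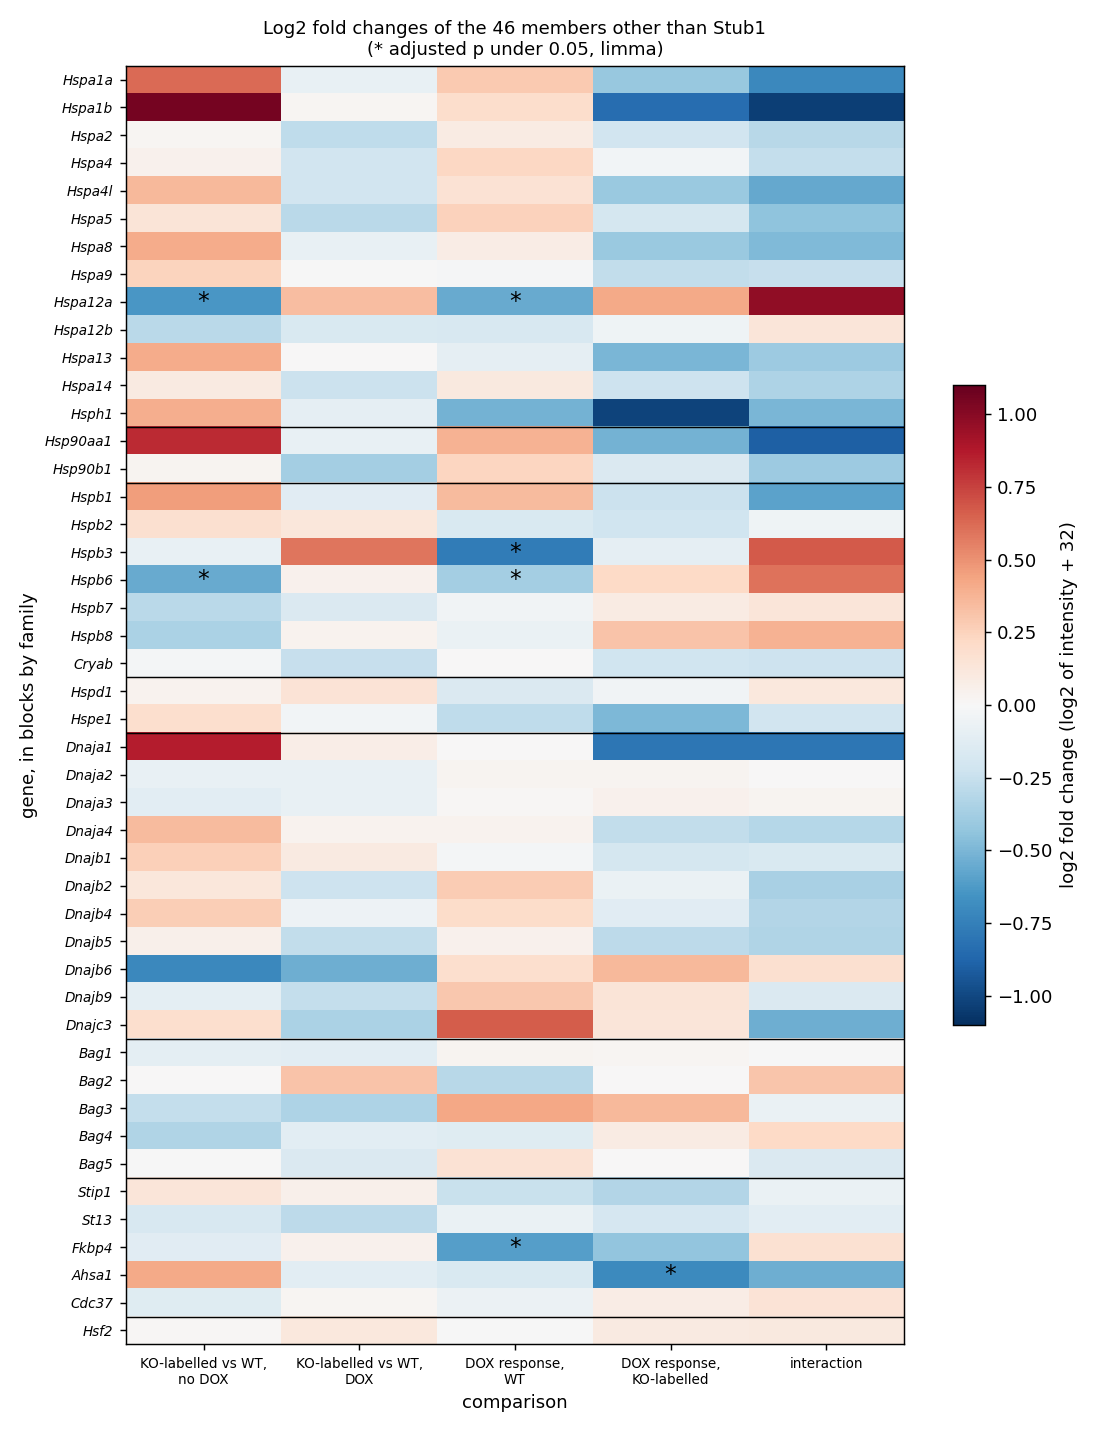
Log2 fold changes of log2(intensity + 32) for the 46 measured members other than Stub1 (y axis, in blocks by family) in the 5 comparisons (x axis, KO-labelled for knockout-labelled), coloured from blue (lower) to red (higher), with a star where limma's adjusted p was under 0.05. Stars mark Hspa12a and Hspb6 in 2 comparisons each and Hspb3, Fkbp4 and Ahsa1 in 1 each, and among the dark cells without a star are Hspa1b at 1.06 without DOX and Hspa12a at 0.98 in the interaction. The Hspa1b value was 0.30 without knockout-labelled no DOX replicate 3.

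Of the 47 measured members, 41 passed in none of the 5 comparisons. For 16 of these every log2 difference on the brightest probe set was within 0.3 of 0: Hspa4, Hspa9, Hspa12b, Hspb2, Hspb7, Cryab, Hspd1, Dnaja2, Dnaja3, Dnajb1, Dnajb9, Bag1, Bag5, St13, Cdc37 and Hsf2. Dimmer probe sets of Hspa4 and Hspb7 passed between genotypes without DOX, as given above. The smallest spread was that of Dnaja2, a constitutive cytosolic J protein, whose largest difference in size was 0.08. The other 25 exceeded 0.3 in at least 1 comparison, and among them Hspa2, Hspa14, Dnaja4, Dnajb2, Dnajb4, Dnajb5 and Bag4 did so by little, with a largest difference of 0.30 to 0.36. The 11 J proteins and the 5 BAG members had 0 calls in each. J proteins had a median DOX response of 0.04 in WT hearts, with 10 of 11 above 0, and of -0.07 in knockout-labelled hearts, with 5 of 11 above 0. The 5 ER members (Hspa5, Hspa13, Hsp90b1, Dnajb9 and Dnajc3) had a median of 0.25 in WT hearts after DOX and of -0.16 in knockout-labelled hearts, which was 0.08 without knockout-labelled no DOX replicate 3, and all 5 interaction values were below 0 without passing. WT DOX replicate 3 was high for several of them: Dnajb9 read 2166 there and 1378 and 1541 on the other WT DOX arrays. The 4 mitochondrial members (Hspa9, Hspd1, Hspe1 and Dnaja3) had median differences from -0.16 to 0.11 over the genotype and DOX comparisons. Cryab, the alpha B-crystallin of cardiac muscle, read between 9532 and 12960 over all 12 arrays. Its knockout-labelled DOX values (9532 to 9934) lay below its WT DOX values (11020 to 12880) without passing the test. Hsf2, a heat shock factor, read 12.6 to 23.2 and was the 1 measured member with a mean under 32, a level below which 51.4% of all probe sets lay.

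Other genes of the folding and ubiquitin pathways were taken from 6 lists, with 74 of 76 genes measured. Without DOX 5 of the 74 passed between genotypes, after DOX 2, for DOX in WT hearts 3, for DOX in knockout-labelled hearts 2 and for the interaction 0, beside the shares of all probe sets given above. Of the 14 genes of the TRiC chaperonin, which folds actin and tubulin, and of prefoldin, which delivers clients to it, Cct3 was higher (0.46, adjusted p = 0.023) and Cct7 lower (-0.55, adjusted p = 0.022) on knockout-labelled arrays without DOX. Cct2 was higher after DOX in WT hearts (0.25, adjusted p = 0.0094) and lower on knockout-labelled than WT arrays after DOX (-0.22, adjusted p = 0.019). Cct3 and Cct6a fell after DOX in knockout-labelled hearts (-0.50 and -0.35, adjusted p = 0.019 and 0.0076). The calls of Cct3 and Cct7 without DOX were lost without knockout-labelled no DOX replicate 3 (adjusted p = 0.051 and 0.068).
Among 11 measured ubiquitin genes linked to CHIP, Ube2d3, a ubiquitin-conjugating enzyme with which CHIP works, was lower on knockout-labelled arrays both without DOX (-0.25, adjusted p = 0.026) and after it (-0.42, adjusted p = 0.0078). Sqstm1, the autophagy receptor p62, was higher after DOX in WT hearts (0.94, adjusted p = 0.013). Aarsd1, which carries an HSP90-binding domain, was lower without DOX on knockout-labelled arrays (-0.32, adjusted p = 0.049, and 0.14 without knockout-labelled no DOX replicate 3). Hspbp1, an HSP70 exchange factor that inhibits CHIP, was lower after DOX in WT hearts (-0.29, adjusted p = 0.033). Asns, an amino acid enzyme induced through ATF4, was higher on knockout-labelled arrays without DOX (1.18, adjusted p = 0.041, and 0.053 without that array). The 15 ER chaperones and folding enzymes and the 10 other mitochondrial chaperones and proteases had 0 calls in any of the 5 comparisons.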

How the data were processed

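Total RNA of 12 mouse hearts was hybridised to Affymetrix 430 2.0 arrays, 1 biotin-labelled sample an array. The deposited values are linear probe set intensities that the authors made with Affymetrix Expression Console; its version and summary method are not given in the sources used here, and array medians of 28.9 to 30.4 lie close together. Of 45037 probe sets, 34945 name 1 gene, 932 several and 9160 none in the platform annotation. Members and lists were chosen with earlier results of these data known.

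Values were tested as log2(intensity + 32) with limma 3.58.1 in R 4.3.3 (4 group means, 12 arrays, moderated variance, two-sided, Benjamini-Hochberg over all probe sets, called at an adjusted p under 0.05), after the script was tested on simulated data. A member is counted on its brightest probe set. Array values were named by rule for Stub1, called members and the 3 smallest p of each comparison; the genes high on 1 array were named after their values were seen. Alternatives covered normalization, the added value, a filter, the variance model, array weights, a replicate block, fits to 6 arrays, the methods' t-test, probe set means and leaving out each array. Labels call replicates biological, and p-values measure the spread between these arrays, whose number limits the precision. Python 3.11.15, pandas 2.3.3 and matplotlib 3.10.9 drew the figures and searched RefSeq promoters (GRCm38.p6).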

Additional observations from a re-analysis of the deposited data

Results flagged for a closer look

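For 4 of 47 measured members, against 0.746% of all probe sets, every DOX array lay on one side of every untreated array in WT hearts and on the other side in knockout-labelled hearts. The interaction test of that difference passed for none of them. Stub1 had an interaction of -0.45 (SE 0.19, adjusted p = 0.56, limma), its DOX arrays being slightly above the untreated ones in WT hearts and below them in knockout-labelled hearts. Hspa12a (0.98, SE 0.16, adjusted p = 0.23) and Hspb6 (0.60, SE 0.10, adjusted p = 0.26) were lower after DOX in WT hearts and higher in knockout-labelled hearts. Hsp90aa1 (-0.90, SE 0.38, adjusted p = 0.57) was higher after DOX in WT hearts and lower in knockout-labelled hearts, and its interaction was -0.50 (adjusted p = 0.48) without knockout-labelled no DOX replicate 3.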

How the results depend on the processing

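Counts of called members depended on the settings, while no result changed sign past the test. In the order genotype without DOX, genotype after DOX, DOX in WT hearts and DOX in knockout-labelled hearts, the main counts were 3, 1, 4 and 1. Adding 1 in place of 32 gave 5 and 2 for the genotype comparisons. Keeping probe sets with a mean of at least 32 gave 7, 2, 7 and 8. A trended and robust variance gave 6 and 2 for the genotype comparisons and 3 for DOX in knockout-labelled hearts. Array weights gave 2 after DOX between genotypes and 7 for DOX in WT hearts. Averaging all probe sets of each gene gave 6 without DOX between genotypes and 3 for DOX in knockout-labelled hearts, and ended the call of Fkbp4 for DOX in WT hearts (-0.29, adjusted p = 0.053). It took Stub1 to 1.15 without DOX and 0.91 after it, with both still called. In fits to the 6 arrays compared the counts were 0 after DOX between genotypes, 2 for DOX in WT hearts and 0 in knockout-labelled hearts, with Stub1 after DOX at 1.89 (adjusted p = 0.052). The methods' t-test with Benjamini-Hochberg adjustment called 1, 0, 0 and 0, with Stub1 after DOX at 1.89 (adjusted p = 0.24). Leaving out 1 array at a time gave 1 to 4, 1 to 3, 0 to 7 and 0 to 2, and 0 for the interaction. Quantile normalization and subtraction of array medians moved the median of all probe sets by at most 0.02 and no count by over 1.5 times.

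Each array's deviations from the other arrays of its group were correlated between same-numbered arrays of different groups. They correlated above 0.1 in 3 of 18 pairs (-0.25 to 0.15). With 3 arrays a group this cannot settle whether the numbers pair the arrays, and the main fit used no pairing. The replicate block gave 5 members without DOX between genotypes and 2 for DOX in knockout-labelled hearts, and ended the call of Hspa12a for DOX in WT hearts (-0.56, adjusted p = 0.056).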

Other observations

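Genes outside the chaperone list were also high on knockout-labelled no DOX replicate 3, and those named here were chosen after their values were seen. Cxcl13, a chemokine, read 1622 on this array and at most 283.9 on the other 11. Lcn2, an acute-phase protein of neutrophils and injured tissue, read 1534 and at most 514.2 elsewhere, and Prg4, a secreted proteoglycan, read 1596 and at most 155.3. S100a8, a neutrophil protein, read 2337 on this array but up to 3095 on another.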
